A study of Mus musculus with 29 samples.

Results

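Cortex from mice that carry a Tbr1 point mutation and were given fluoxetine was compared here with cortex from wild-type mice given vehicle. The comparison covers 16 of the 29 libraries of the series: 8 from the carriers under fluoxetine and 8 from wild type under vehicle, chosen by their labelled genotype and treatment. Each group of 8 holds 4 females and 4 males. It asks what still differs from wild type in treated carriers.

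All mice were of strain C57BL/6J and were studied at postnatal day 40, and the tissue was prefrontal cortex, per the labels. The carriers had 1 copy of the Tbr1 allele K228E and 1 wild-type copy, and are called HT fluoxetine. The wild-type mice are called WT vehicle. The other libraries are HT vehicle (3 females, 3 males) and HT lithium (3 females, 4 males). How much fluoxetine was given, how and for how long is not in the labels, and no libraries of wild-type mice under fluoxetine were analysed here, so in HT fluoxetine minus WT vehicle the allele and the drug cannot be told apart. The labels do not say that each library came from a separate animal, so p-values measure the spread between these samples, which may be technical.

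Tbr1 encodes a T-box transcription factor. It is made by glutamatergic neurons of the deep cortical layers, above all layer 6, where it directs their identity and their projections to the thalamus, and mutations in the human gene are found in autism. The T-box is the domain with which the protein binds DNA. Fluoxetine blocks the serotonin transporter, so that serotonin released in the cortex by fibres from the raphe nuclei acts for longer on receptors of cortical cells.

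The affected codon is shown because it is the only designed genetic change in the carriers. The name K228E says that the codon so numbered changes from lysine (K) to glutamate (E). In the reference transcript Tbr1-201 of GENCODE M21 this codon is AAA. It lies on the plus strand of GRCm38 at chr2:61805389-61805391, in exon 1 of 6. The coding sequence around it reads, 5′ to 3′ with that codon in capitals and across the junction of exons 1 and 2:
Tbr1 coding sequence: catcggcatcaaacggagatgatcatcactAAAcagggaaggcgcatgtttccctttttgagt
Values per gene do not separate the alleles, so they do not check the genotype of a library.

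The deposited values are read counts divided by 1 size factor per library, called normalised values below. The 16 libraries held 22.81 M to 31.71 M reads. Markers of cortex were present in every library: Slc17a7, the vesicular glutamate transporter of cortical excitatory neurons, lay between 32387 and 47171 in HT fluoxetine and between 34582 and 47443 in WT vehicle. Markers of neighbouring regions varied between libraries. The mean log2 value of 25 markers of striatal projection neurons lay more than 1 above the median library in HT fluoxetine female 2, HT fluoxetine males 1 and 2 and WT vehicle females 1 and 3. The mean of 22 markers of olfactory areas did so in HT fluoxetine female 1 and WT vehicle male 3. Summed over the striatal list, values ran from 19912 to 43079 in HT fluoxetine and from 19933 to 30220 in WT vehicle, and over the olfactory list from 22144 to 42529 and from 20788 to 44919. No marker of either list was at 0 in all libraries.

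**Figure D1:**
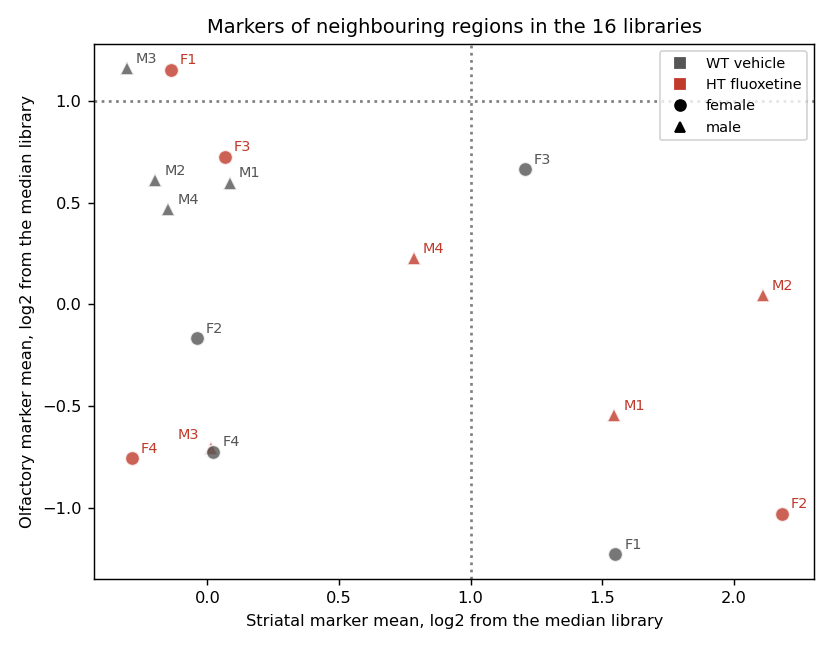
Mean log2 value of the striatal markers (horizontal axis) and of the olfactory markers (vertical axis) per library, relative to the median of all libraries of the series. Each point is 1 of the 16 libraries, red for HT fluoxetine and grey for WT vehicle, circles for females and triangles for males; dotted lines mark 1, and 7 of the 16 libraries lie beyond one of them, among them HT fluoxetine males 1 and 2 but only 1 WT vehicle male.

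A small set of genes differed. Of 17881 genes tested, 34 passed an adjusted p of 0.05 (0.190% of those tested), 26 higher in HT fluoxetine (0.145%) and 8 lower (0.0447%). The median log2 difference over all genes was -0.0026. Most differences were small, and 3 of the 34 genes exceeded 1.5-fold. All 34 differed in the same direction in both sexes. The groups of 8 did not overlap for 11 of the 17881 genes (0.0615%), and 6 of these were among the 34: Timp2, Krt77 and Chrm4 were higher in every HT fluoxetine library, and Tgfbr2, Cebpd and C130036L24Rik were lower.

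The number of genes past the threshold rests on the shared spread of all 29 libraries, from which limma estimated the error with 21 residual degrees of freedom. Fitted on the 16 libraries alone with sex as a covariate, with 13 residual degrees of freedom, the same fold changes gave 0 genes past the threshold (smallest adjusted p = 0.0821 by limma), with 1189 genes at an unadjusted p under 0.05. In the fit of all libraries 1655 genes had such a p, where 894 are expected if nothing differs. On recovered reads, edgeR's quasi-likelihood test with all libraries gave 32 genes, all among the 34, and DESeq2 gave 96, which held all 34. Leaving out a library moved the count to 98 (HT fluoxetine female 1), 10 (HT fluoxetine female 4), 19 (HT fluoxetine male 2), 11 (WT vehicle female 2), 20 (WT vehicle female 3), 61 (WT vehicle female 4), 21 (WT vehicle male 1) and 60 (WT vehicle male 4). Of the 34 genes, 10 passed in all 16 such fits: Tbr1, Necab1, Sox18, Pfkfb3, Timp2, Krt77, Gaa, Ddit4, Cebpd and the pseudogene model Gm13736. Another 11 passed in fewer than 8 of the 16. Among the higher genes described below, Rara and Hyou1 passed in 3 of these fits, Lrrtm1 in 5 and Fndc9 in 6. Chrm4 passed in 8, and Per2, Wnt4 and Ccnd2 in 9. Without the 8 of 29 libraries with high striatal or olfactory markers, 5 genes passed, on 13 residual degrees of freedom. Of these, Tbr1, Pfkfb3, Ddit4 and Gm13736 were among the 34. With both marker means as covariates 93 genes passed, the 34 among them.

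Tbr1 itself was higher in HT fluoxetine. Its normalised value ran from 2858 over a median of 4275 to 4766 in HT fluoxetine, and from 2151 over 3035 to 3432 in WT vehicle. In 7 of 8 HT fluoxetine libraries it lay above every WT vehicle library, and female 1, with high olfactory markers, was the exception. That library, at 2858, lay below all WT vehicle females (3026 to 3432). The difference was 1.45-fold (log2 difference 0.54 ± 0.084 SE, adjusted p = 0.00504). It was 0.47 with the marker means as covariates and 0.57 without the libraries with high markers, and passed in both. In males alone the log2 difference was 0.74 and passed, and in females alone Tbr1 did not pass. Among 21 tested markers of layer 6 and layer 6b neurons, Tbr1 alone passed, beside 0.190% of all genes. Of the 21, 11 were higher and 10 lower, and the list's median was 0.04. That median was -0.18 in females, with 16 lower, and 0.32 in males, with 15 higher. Of 22 genes reported as linked to Tbr1, 12 were higher, 10 lower and none passed in limma (median 0.01). Fezf2, a factor of layer 5 neurons on that list, had values of 539.5 to 932.2 in HT fluoxetine and 402 to 801.3 in WT vehicle (log2 difference 0.40 ± 0.11 SE, adjusted p = 0.17).

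Of the 34 genes, 6 lie on chromosome 2 with Tbr1: Pfkfb3, Chrm4, Sla2, Sox18 and Gm13736 besides Tbr1. This is 0.435% of the 1379 genes tested there against 0.190% of all genes. The share was 0.384% on chromosome 9, 0.380% on chromosome 4 and 0.373% on chromosome 16, and 0% on chromosomes 3 and 7 among others. The other genes on chromosome 2 lie at distances of 25.7 Mb (Gm13736) to 120 Mb (Sox18) from Tbr1. Gm13736 is a processed pseudogene model without an assigned name, named here after its values were seen. It was at 8.88 to 29.99 in all 8 HT fluoxetine libraries and at 0 in 6 of 8 WT vehicle libraries, with 5.31 in WT vehicle female 3 and 16.8 in WT vehicle male 2. HT vehicle and HT lithium libraries had 11.7 to 25.2 and 11.7 to 19.4. A pseudogene can share reads with its parent gene, so these values are uncertain.

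**Figure D2:**
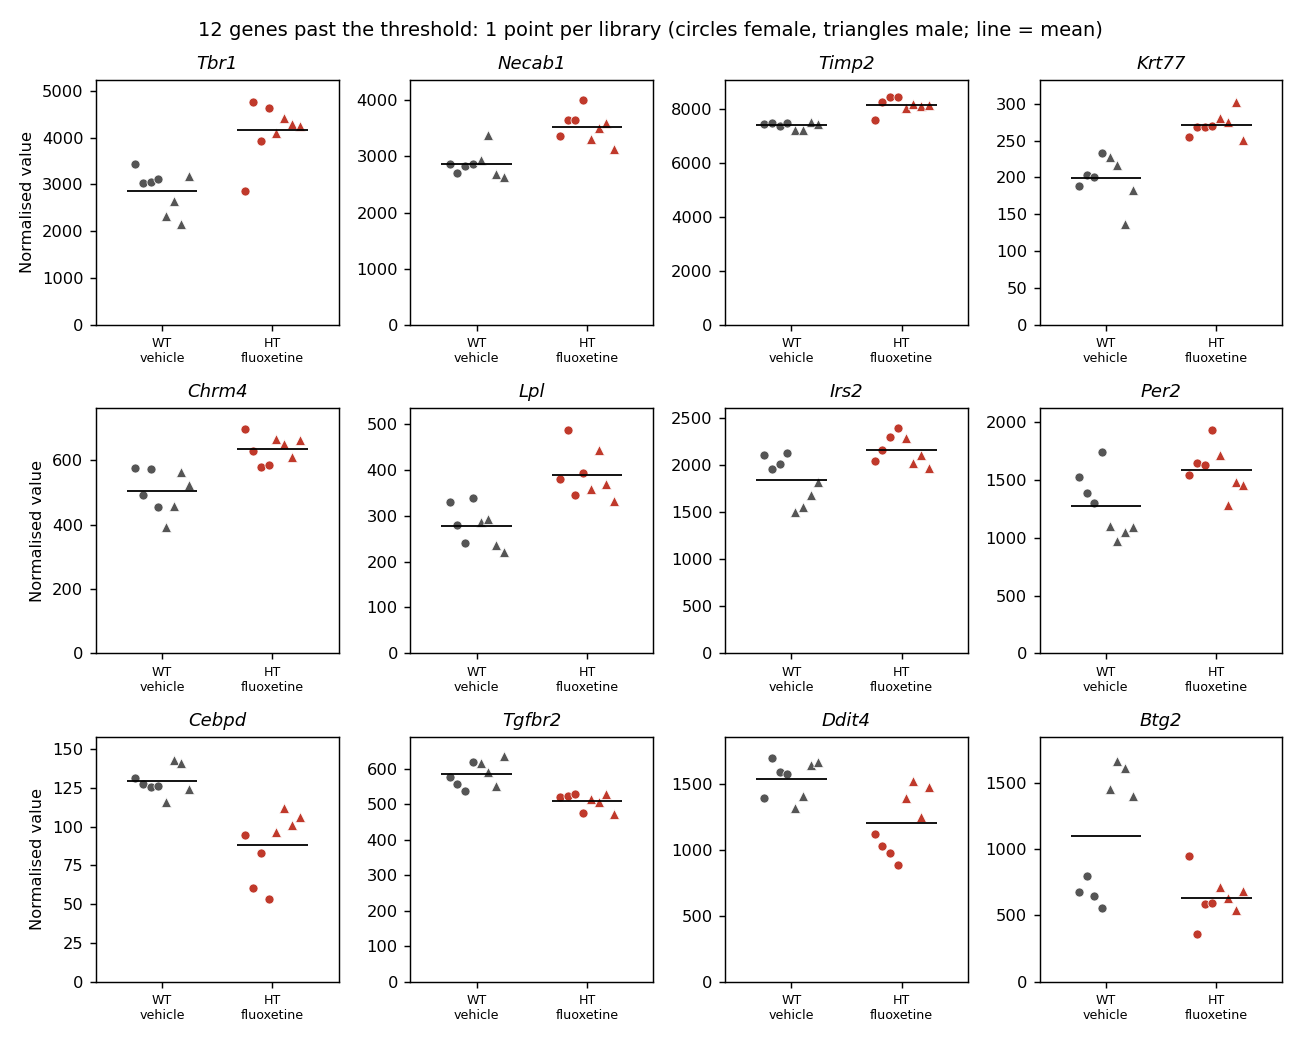
Normalised value (vertical axes, starting at 0) of 12 of the 34 genes in each WT vehicle and HT fluoxetine library, 1 point per library with the group mean as a line. Timp2, Krt77 and Chrm4 are higher and Cebpd and Tgfbr2 lower in every HT fluoxetine library than in any WT vehicle library; the 4 WT vehicle males stand above all others for Btg2.

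Pfkfb3, Irs2, Gaa and Lpl were higher in HT fluoxetine and are put side by side after their values were seen. Pfkfb3 makes fructose 2,6-bisphosphate, the activator of glycolysis. Its value was 1072 to 1413 (median 1262) in HT fluoxetine and 898.4 to 1166 (median 998.5) in WT vehicle, with 5 treated libraries above all of WT vehicle (1.21-fold, log2 difference 0.27 ± 0.046 SE, adjusted p = 0.00839). Irs2, which relays signals from the insulin receptor, lay at 1963 to 2386 (median 2128) against 1499 to 2120 (median 1886). It differed 1.18-fold (log2 difference 0.23 ± 0.044 SE, adjusted p = 0.0187), and the 4 WT vehicle males, at 1499 to 1817, were below all other 12 libraries. Gaa, the lysosomal enzyme that breaks down glycogen, was at 7471 to 8598 (median 8051) against 5676 to 7731 (median 6791) and differed 1.19-fold (adjusted p = 0.0129). Lpl releases fatty acids from lipoproteins. It had values of 332.8 to 486.9 (median 375) against 222 to 338.6 (median 284.2), with 7 of 8 treated libraries above every WT vehicle library (1.40-fold, adjusted p = 0.0187). Leaving out WT vehicle or HT fluoxetine libraries 1 at a time, Lpl passed in 13 of 16 fits, and when the libraries with high markers were dropped its log2 difference was 0.33 (adjusted p = 0.493). Of 29 genes of insulin and insulin-like growth factor signalling Irs2 was the only one to pass, beside 0.190% of all genes. The list's median was 0.0013. Of 28 genes of cholesterol synthesis and transport none passed in limma over both sexes (median 0.02).

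The genes that follow act in signalling and gene regulation. Necab1, a calcium-binding protein of neurons, was at 3125 to 4010 (median 3545) in HT fluoxetine and 2631 to 3379 (median 2841) in WT vehicle. WT vehicle male 2, at 3379, lay within the treated range, and the other 7 did not (1.23-fold, log2 difference 0.30 ± 0.045 SE, adjusted p = 0.00439). Smad3 carries signals from TGF-beta receptors to the nucleus. It was at 1923 to 2350 (median 2096) against 1501 to 1991 (median 1783) (1.20-fold, adjusted p = 0.0166). Tgfbr2, the type 2 receptor upstream of Smad3, differed in the other direction, with 473.5 to 528.7 (median 517.1) against 535.5 to 636.5 (median 582.8) and no overlap (log2 difference -0.20 ± 0.040 SE, adjusted p = 0.0264). Of 28 genes of this pathway these were the only ones to pass, beside 0.190% of all genes. Tgfbr2 passed in 10 of the 16 fits that left out a library. Wnt4, a secreted Wnt ligand, was at 587.8 to 938.6 (median 786.2) against 421.9 to 702.3 (median 557.4) (1.37-fold, adjusted p = 0.0264). Ccnd2, cyclin D2, differed 1.17-fold (adjusted p = 0.0264), and Rara, a retinoic acid receptor, 1.29-fold (adjusted p = 0.0383). Rara was at 227.2 to 315 in WT vehicle males, below the treated range of 332.1 to 437.4. The WT vehicle females, at 308.8 to 430, lay within that range in 2 of 4 libraries.

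Clock genes were among the 34. Bhlhe40 and Per2 encode repressors in the circadian clock. Bhlhe40 binds E-box sequences. Its values were 3590 to 4709 in HT fluoxetine (median 4164) and 3182 to 3947 in WT vehicle (median 3267), a 1.21-fold difference (log2 difference 0.28 ± 0.053 SE, adjusted p = 0.0187). Per2 was at 1289 to 1937 (median 1585) against 977 to 1748 (median 1204). Its 4 WT vehicle males, at 977 to 1104, were below every other library of the comparison, whereas the females of both groups overlapped (1.26-fold, log2 difference 0.34 ± 0.067 SE, adjusted p = 0.0279). In all, 16 of 21 clock genes were higher, 2 passed and the median was 0.09. Of all genes, 48.7% were higher and 0.190% passed. Bhlhe41 (0.17 ± 0.044 SE, adjusted p = 0.121) and Nr1d1 (0.20 ± 0.054 SE, adjusted p = 0.151) did not pass. The labels give no hour at which tissue was taken.

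Single genes of synapses and receptors passed. Chrm4, the M4 muscarinic acetylcholine receptor, was at 578.8 to 697.5 (median 639.6) in HT fluoxetine and 392.1 to 577.9 (median 508) in WT vehicle, without overlap (1.27-fold, log2 difference 0.34 ± 0.069 SE, adjusted p = 0.0279). It is also abundant in striatal neurons. Of 17 adrenergic, muscarinic and dopamine receptors tested, Chrm4 alone passed, beside 0.190% of all genes. Of the 17, 11 were higher and 6 lower, and the median was 0.16 (-0.02 in females and 0.31 in males). The difference of Chrm4 was 0.33 with the marker means as covariates, and 0.39 without the libraries with high markers, where it did not pass (adjusted p = 0.174). Lrrtm1, a postsynaptic adhesion protein that binds neurexins, was at 1238 to 1420 (median 1358) against 1031 to 1302 (median 1192) (1.14-fold, adjusted p = 0.0343). It was the only 1 of 32 synaptic adhesion genes to pass, beside 0.190% of all genes. Plcxd2, listed as an upper-layer neuron gene, was at 3316 to 4098 (median 3769) against 3014 to 3565 (median 3252) (1.15-fold, adjusted p = 0.0187). Of 39 genes of glutamate receptors and the postsynaptic density, 33 of presynaptic release, 19 of inhibitory synapses and 57 ion channel genes, none passed in limma, and the medians lay between 0.0062 and 0.024.

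The serotonin system, on which fluoxetine acts, held no gene that passed. Of 23 genes listed, 20 were tested, 9 were higher and the median was -0.03. Htr4, a serotonin receptor that stimulates adenylyl cyclase, had the smallest p (log2 difference 1.05 ± 0.36 SE, adjusted p = 0.307). Its values spread from 10.1 to 89.9 in HT fluoxetine and from 4.68 to 37.9 in WT vehicle, with the WT vehicle males at 4.68 to 14.7. Htr1b, an inhibitory serotonin receptor on axon terminals, was at 215.4 to 447.5 against 167.6 to 317.6 (0.27 ± 0.13 SE, adjusted p = 0.531). With the striatal and olfactory marker means as covariates the log2 differences were 0.73 for Htr4 and 0.17 for Htr1b. Without the libraries with high markers they were 0.80 and 0.13. Slc6a4, the target of the drug, was not analysed here.

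Among the other higher genes, Timp2, an inhibitor of matrix metalloproteinases, was at 7591 to 8426 (median 8154) in HT fluoxetine against 7223 to 7497 (median 7450) in WT vehicle (1.10-fold, log2 difference 0.14 ± 0.024 SE, adjusted p = 0.00839). Krt77, a type II keratin, was at 250.9 to 302.4 (median 269) against 136.2 to 233.2 (median 202.3) (1.38-fold, adjusted p = 0.00924). Sox18, a transcription factor of endothelial cells, was at 160.2 to 220.8 (median 185.9) against 106.7 to 172.5 (median 134.7) (1.37-fold, adjusted p = 0.00839). Of 26 endothelial and mural markers 24 were lower and none passed in limma, with Cldn5, a tight junction protein, at -0.23 ± 0.061 SE (adjusted p = 0.133) and Pdgfrb, a receptor of pericytes, at -0.17 ± 0.044 SE (adjusted p = 0.151). Sox18 was not on that list. Banp, a nuclear DNA-binding protein, was at 760 to 880.7 (median 848.9) against 530.4 to 837.5 (median 714.7) (1.24-fold, adjusted p = 0.0187). Hyou1, a chaperone of the endoplasmic reticulum, differed 1.11-fold (adjusted p = 0.0433). Among 27 heat shock and endoplasmic reticulum chaperones 26 were higher, Hyou1 passed and the median was 0.07. Of all genes, 48.7% were higher and 0.190% passed. Hspa5, the main chaperone of that compartment, was at 5822 to 6949 against 5089 to 6232 and missed the threshold (adjusted p = 0.0709). Within the comparison, the mean of the chaperone list was lowest in the 4 WT vehicle males, at -0.143 to -0.101. It lay between -0.072 and 0.094 in the other 12 libraries. Outside the comparison, HT vehicle males 1, 2 and 3 were at -0.129, -0.131 and -0.053.

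Lower in HT fluoxetine were Ddit4 and Cebpd, both on the list of glucocorticoid-responsive genes. Ddit4 restrains the growth kinase complex mTORC1. Its values were 885.9 to 1522 in HT fluoxetine (median 1181) and 1313 to 1695 in WT vehicle (median 1581), with 5 treated libraries below all of WT vehicle (log2 difference -0.37 ± 0.059 SE, adjusted p = 0.00666). Cebpd, a transcription factor induced in inflammation and by glucocorticoids, was at 53.6 to 111.9 (median 95.57) against 115.8 to 143.2 (median 126.6), with no overlap (log2 difference -0.58 ± 0.099 SE, adjusted p = 0.00839). The list as a whole did not lean one way: 12 of 24 were higher, 12 lower and the median was -0.0055. Ddit4 and Cebpd were the only 2 of the list to pass, beside 0.190% of all genes. Fkbp5, which limits the glucocorticoid receptor and is induced by it, was at 821.1 to 1286 against 593.1 to 1113 (0.34 ± 0.10 SE, adjusted p = 0.212).

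Btg2, an antiproliferative gene induced early by neuronal activity, had a log2 difference of -0.71 ± 0.14 SE (adjusted p = 0.0279). It rested on WT vehicle males. They were at 1400 to 1664, while WT vehicle females were at 555.9 to 797 and HT fluoxetine libraries of both sexes at 362.2 to 951.1. Outside this comparison, HT vehicle libraries ran from 565.6 to 1197, with males 1 and 2 at 1197 and 1154. Btg2 passed in 6 of the 16 fits that left out a library. It was the only 1 of 35 immediate early genes to pass, beside 0.190% of all genes. Ier5 (0.22 ± 0.051 SE, adjusted p = 0.0607), Jun (-0.28 ± 0.064 SE, adjusted p = 0.0635) and Bdnf (0.24 ± 0.059 SE, adjusted p = 0.0922) followed with different signs. The median of the list was 0.01.

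Ighg2c, an immunoglobulin heavy chain constant region, was at 44.38 to 67.43 (median 52.39) against 63.1 to 82.07 (median 72.42) (log2 difference -0.44 ± 0.089 SE, adjusted p = 0.0295). It passed in 3 of the 16 fits that left out a library, and near-identical constant regions can share its reads. Smim1 (log2 difference -0.30, adjusted p = 0.0343) and Cep85l (log2 difference -0.23, adjusted p = 0.0433) completed the named lower genes and passed in 5 and 4 of these fits. Necab1, Cebpd, Irs2, Bhlhe40, Sla2, Ccnd2, Fndc9, Smim1, Lrrtm1 and Cep85l overlap a gene on the opposite strand, and Timp2 one on its own strand. Whether the authors' counting used strand is not given in the sources used here, so the assignment of reads in these overlaps is uncertain.

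Lists of microglia, astrocytes, vessels, meninges, blood and MHC genes had medians below 0 without a gene past the threshold. All 20 microglial genes were lower (median -0.07), as were 21 of 24 astrocyte genes (-0.06), 17 of 18 of meninges and fibroblasts (-0.12), all 7 of blood (-0.09) and 20 of 23 of MHC class I and interferon (-0.10). None of these genes passed in limma in HT fluoxetine, where 48.7% of all genes were higher. The other carrier groups were compared with the same WT vehicle libraries. There, 19 microglial genes were lower in HT vehicle and 18 in HT lithium. For astrocytes the counts were 19 and 21, and for meninges and fibroblasts 18 and 17. For blood they were 7 and 5, and for MHC class I and interferon 17 and 20. Other glial lists did not lean lower throughout in HT fluoxetine: of 26 genes of oligodendrocytes and myelin 23 were higher (median 0.05), and of 14 of oligodendrocyte precursors 6 were higher and 8 lower (median -0.05). These pooled medians join opposite signs. For oligodendrocytes and myelin the median was -0.13 in females, with 24 lower, and 0.23 in males, with all 26 higher. For precursors it was -0.15 in females and 0.06 in males. H2-D1, a class I antigen-presenting molecule, was at 1019 to 1234 against 1091 to 1331 (-0.16 ± 0.043 SE, adjusted p = 0.151). In bulk tissue, fewer cells of a type and less RNA per cell cannot be told apart. The striatal list had a median of 0.57 and the olfactory list one of -0.31, with none of their genes past the threshold. The part of uneven tissue in the other differences was tested only through the fits with marker means and without the libraries with high markers.

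**Figure D3:**
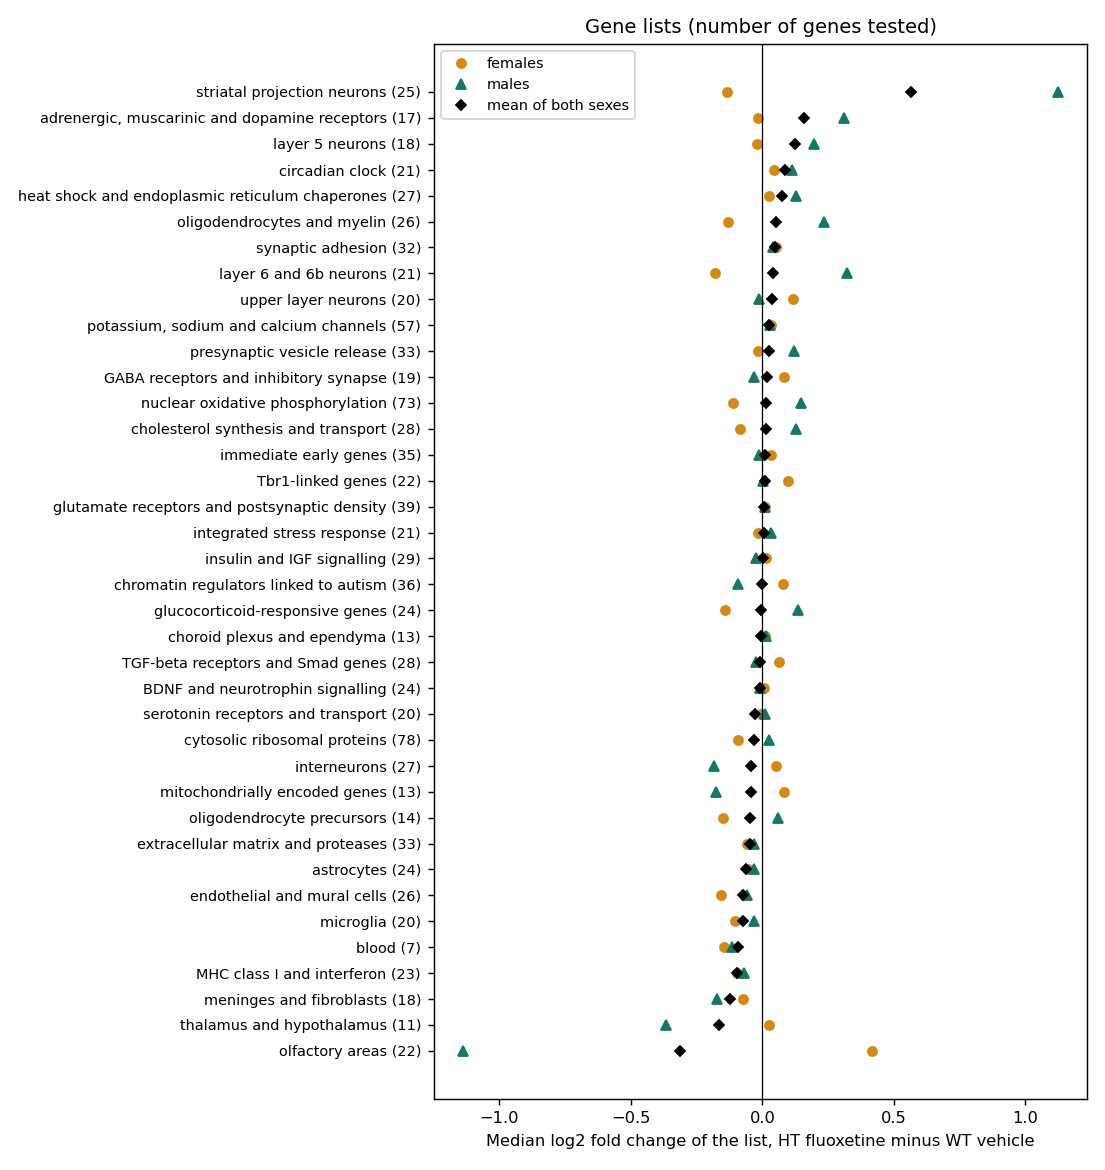
Median log2 difference, HT fluoxetine minus WT vehicle (horizontal axis), of each gene list (vertical axis, genes tested in parentheses), for females (circles), males (triangles) and the mean of both sexes (diamonds). The medians over both sexes lie between -0.31 for olfactory areas and 0.57 for striatal projection neurons, and these lists have medians of opposite sign in females and males. So do other lists, among them oligodendrocytes and myelin and layer 6 and 6b neurons.

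Windows from 250 bases before to 50 after a RefSeq transcript start were read for those of the 34 genes that have one in the promoter table (22 genes, GRCm38.p6). A gene can have several such starts, and was counted where any of its windows held the word. Of the 22 genes, 3 had more than 1 window, Ece1, Pfkfb3 and Rara. The words searched on both strands were AGGTGTGA, a core of the T-box binding sequence, CACGTG, the E-box to which Bhlhe40 binds, and TGACGTCA, the cyclic AMP response element. The words do not overlap each other. The T-box word was in none of the 22, and in 1.28% of all 32851 promoters and 1.05% of the 12630 tested genes with a promoter. The E-box was in 5 of the 22, Ece1, Gaa, Irs2, Pfkfb3 and Rara, all higher in HT fluoxetine, as were 26 of all 34 genes. It was in 7.15% of all promoters and 11% of the tested genes. The cyclic AMP response element was in Btg2 alone, and in 1.79% and 3.33%. The windows that follow are those with an E-box in Irs2, Pfkfb3 and Gaa, since Bhlhe40 is itself among the higher genes, and that of Btg2. The word is in capitals:
Irs2: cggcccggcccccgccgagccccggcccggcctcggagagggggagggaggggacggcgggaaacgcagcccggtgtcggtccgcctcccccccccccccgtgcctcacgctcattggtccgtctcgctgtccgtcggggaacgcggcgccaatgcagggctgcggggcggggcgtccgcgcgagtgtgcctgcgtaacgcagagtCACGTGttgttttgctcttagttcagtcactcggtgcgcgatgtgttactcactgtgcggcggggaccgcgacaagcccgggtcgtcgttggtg
Pfkfb3: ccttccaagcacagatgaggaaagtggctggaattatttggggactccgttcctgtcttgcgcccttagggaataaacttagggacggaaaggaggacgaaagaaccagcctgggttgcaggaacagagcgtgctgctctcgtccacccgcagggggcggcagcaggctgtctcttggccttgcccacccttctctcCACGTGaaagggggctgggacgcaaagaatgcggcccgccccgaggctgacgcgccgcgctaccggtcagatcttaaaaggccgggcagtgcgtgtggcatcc
Gaa: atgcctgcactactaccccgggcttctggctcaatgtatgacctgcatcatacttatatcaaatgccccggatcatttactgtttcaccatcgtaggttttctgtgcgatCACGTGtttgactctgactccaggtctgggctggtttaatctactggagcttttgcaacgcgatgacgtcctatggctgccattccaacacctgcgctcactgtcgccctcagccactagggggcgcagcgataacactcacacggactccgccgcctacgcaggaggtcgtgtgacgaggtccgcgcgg
Btg2: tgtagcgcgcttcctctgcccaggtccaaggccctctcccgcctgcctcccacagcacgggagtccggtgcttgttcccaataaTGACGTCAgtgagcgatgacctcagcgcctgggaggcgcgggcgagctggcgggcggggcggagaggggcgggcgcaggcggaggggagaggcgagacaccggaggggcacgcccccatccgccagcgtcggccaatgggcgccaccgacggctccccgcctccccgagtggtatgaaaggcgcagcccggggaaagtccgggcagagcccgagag
They lie at chr8:11008880-11009179, chr2:11502041-11502340 and chr1:134079106-134079405 on the minus strand and chr11:119267713-119268012 on the plus strand. The word begins 44 bases before the transcript start of the window in Irs2, 53 in Pfkfb3, 140 in Gaa and 166 in Btg2. The Pfkfb3 window is at a start 52 kb inside the gene model, and the other of its 2 windows does not hold the word. The start of the Irs2 window lies 471 bases outside the GENCODE gene model. A match describes the letters only, and no binding was measured.

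The other carrier groups put these genes in context. They were compared with the same 8 WT vehicle libraries, so that chance in those libraries enters all 3 comparisons, and values are given side by side. HT vehicle minus WT vehicle gave 37 genes (0.207% of those tested, 0.162% higher and 0.0447% lower) and HT lithium minus WT vehicle 340 (1.90%, with 1.33% higher and 0.570% lower). All 34 genes had the same sign in HT vehicle as in HT fluoxetine. Tbr1 was 0.54 in HT fluoxetine and 0.52 in HT vehicle, Cebpd -0.58 and -0.51, Krt77 0.46 and 0.44, and Gaa 0.26 and 0.29. Fndc9, a transmembrane protein with a fibronectin domain, differed most between them. Its values were 61.08 to 101.8 in HT fluoxetine, 37.15 to 65.26 in HT vehicle and 35 to 61.48 in WT vehicle (log2 difference from WT vehicle 0.66 in HT fluoxetine and 0.03 in HT vehicle). The direct difference between HT fluoxetine and HT vehicle was 0.63 and did not pass (adjusted p = 0.402). Ddit4 was -0.37 against -0.18, and Lpl 0.48 against 0.24.

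**Figure D4:**
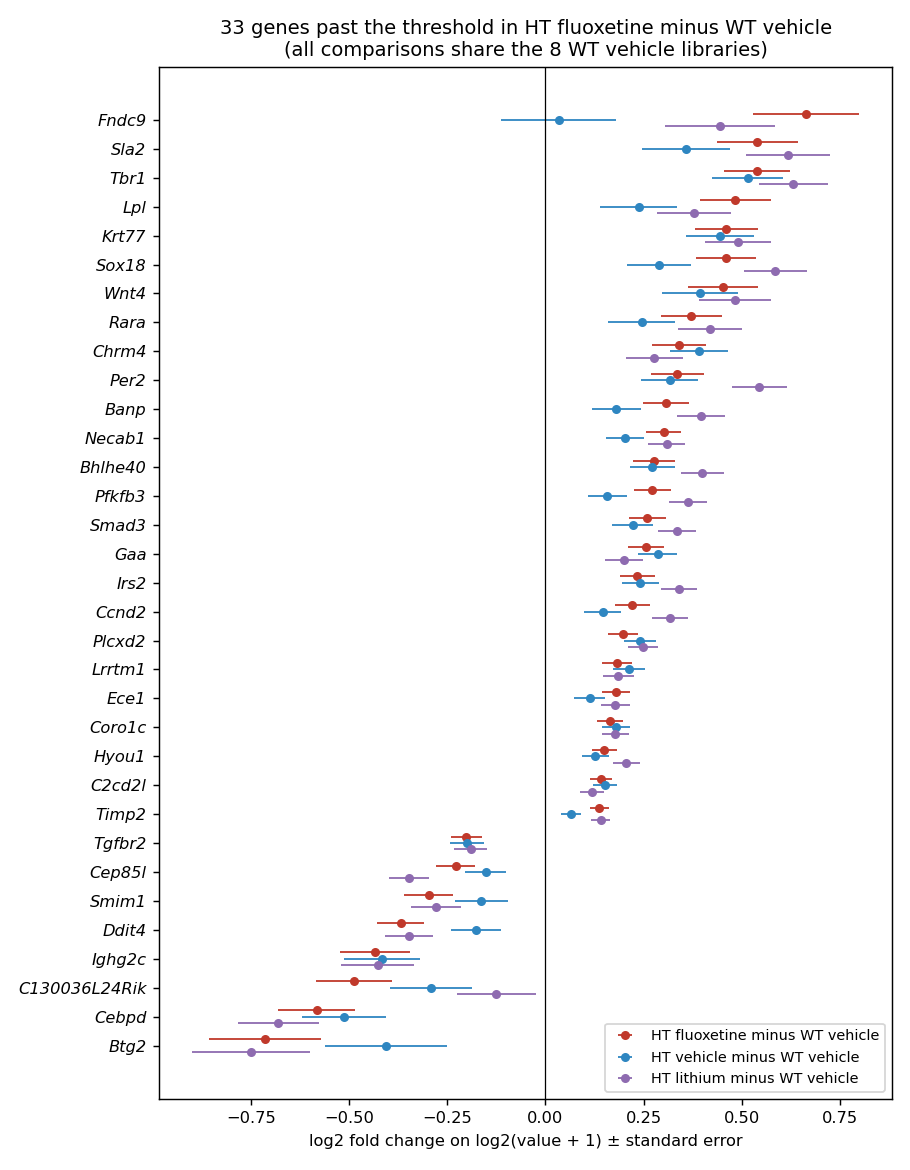
Log2 difference from WT vehicle with its standard error (horizontal axis) of 33 of the 34 genes (vertical axis, Gm13736 left out for its values of 0) in HT fluoxetine (red), HT vehicle (blue) and HT lithium (purple). The 3 comparisons share the WT vehicle libraries; Fndc9 lies at 0.66 in HT fluoxetine and 0.03 in HT vehicle, and the other genes lie on the same side of 0 in all 3.

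Conversely, some genes past the threshold in HT vehicle minus WT vehicle were nearer to WT vehicle in HT fluoxetine. Aldh1l1, a folate enzyme that marks astrocytes, was at 1762 to 2067 in HT vehicle. It was at 1593 to 1732 in HT fluoxetine and 1563 to 1721 in WT vehicle (log2 difference 0.0030 ± 0.031 SE, adjusted p = 0.985). Adra1d, an alpha-1 adrenergic receptor, was 0.17 in HT fluoxetine (adjusted p = 0.473) and 0.42 in HT vehicle. Pcsk4, a proprotein convertase, was 0.31 (adjusted p = 0.236) and 0.62, Whrn, a scaffold protein, 0.21 (adjusted p = 0.0641) and 0.37, and Ldlrad3 -0.12 (adjusted p = 0.290) and -0.23. These genes were picked for a difference in HT vehicle, which favours larger values there. HT fluoxetine minus HT vehicle gave 0 genes past the threshold by limma (0%, smallest adjusted p = 0.296), with 1397 at an unadjusted p under 0.05. By edgeR the count was 0 and by DESeq2 it was 6.

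Females and males were then taken apart. In females 7 genes passed (0.0391%), 4 higher (0.0224%) and 3 lower (0.0168%). Ddit4 was at 885.9, 975.9, 1028 and 1116 in the HT fluoxetine females and 1393, 1573, 1589 and 1695 in the WT vehicle females (log2 difference -0.64 ± 0.084 SE, adjusted p = 0.000758). Ndufa1, a subunit of mitochondrial complex I, was at 936.9, 977.4, 1022 and 1088 against 1240, 1313, 1409 and 1513 (-0.44 ± 0.074 SE, adjusted p = 0.0133), and Cebpd at 53.6 to 94.61 against 125.7 to 131.1 (-0.84 ± 0.14 SE, adjusted p = 0.0133). Necab1 (0.38), Plcxd2 (0.30), Tshz2 (0.53), a zinc finger factor of layer 5 neurons, and Gm13736 were higher. The groups of females did not overlap for any of the 7, which were picked for a small p. How many of all genes separate in groups of 4 was not counted. The count was 13 without HT fluoxetine female 2, 3 without HT fluoxetine female 3, 2 without HT fluoxetine female 4, and 1 without WT vehicle female 2 or 4.

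In males 693 genes passed (3.88%), 436 higher (2.44%) and 257 lower (1.44%). Spata2l was at 1305, 1339, 1400 and 1407 in the HT fluoxetine males and 1013, 1037, 1054 and 1122 in the WT vehicle males (0.37 ± 0.050 SE, adjusted p = 0.00156). Tbr1 was at 4102, 4255, 4295 and 4431 against 2151, 2328, 2653 and 3183 (0.74 ± 0.12 SE, adjusted p = 0.00724). Mc4r, a melanocortin receptor, was at 65.09 to 90.29 against 20.49 to 36.5 (1.47 ± 0.25 SE, adjusted p = 0.0097). Lower were Btg2 (-1.25 ± 0.20 SE), C1galt1, an enzyme of O-glycan synthesis, at 543.7 to 580.6 against 645.7 to 886.2 (-0.51 ± 0.082 SE), and Plcb4, a phospholipase C, at 1787 to 1961 against 2253 to 2398 (-0.31 ± 0.053 SE). None of these groups overlapped, but the genes were picked for a small p, and the share of all genes without overlap in males was not counted.

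The male count was lower in both fits that used the tissue markers. All 4 WT vehicle males lay above the median library for olfactory markers, by 0.469 to 1.162, and HT fluoxetine males 1 and 2 lay 1.547 and 2.112 above it for striatal markers. The male median of the striatal list was 1.12 and that of the olfactory list -1.14. With both marker means as covariates 9 genes passed in males, 7 of them among the 693, with Spata2l (0.34, adjusted p = 0.0200) and Tbr1 (0.53, adjusted p = 0.0486) among them. Without the libraries with high markers the count was 0, with Spata2l at 0.35 and Tbr1 at 0.66. That fit lacked HT fluoxetine males 1 and 2 and WT vehicle male 3. It had 13 residual degrees of freedom against 21, so its count does not separate the markers from the loss of libraries. The count also moved with single libraries: it was 1221 without HT fluoxetine female 1, 427 without male 1 of that group, 176 without its male 2, 381 without its male 3 and 50 without its male 4. Without WT vehicle female 2 it was 435, without WT vehicle male 1 it was 22, without male 2 it was 112, without male 3 it was 27, and without male 4 it was 2157.

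The difference between the sexes was tested directly, as the female minus the male difference. It passed for 634 genes (3.55%), 269 positive (1.50%) and 365 negative (2.04%). Ndufa1 had the smallest p (-0.70 ± 0.10 SE, adjusted p = 0.00786). Its values were lower in HT fluoxetine than in WT vehicle in females, as given above, and higher in males, with 1384, 1416, 1489 and 1525 against 1133, 1133, 1262 and 1349. Ly6h, a membrane-anchored protein that binds nicotinic receptors, was at 2473, 2535, 2743 and 2853 in HT fluoxetine females against 2877, 3075, 3333 and 3432, and at 3180, 3258, 3293 and 3336 in males against 2504, 2525, 2601 and 2819 (-0.58 ± 0.094 SE, adjusted p = 0.00945). Ndufb8, another complex I subunit, was at 2378, 2522, 2584 and 2676 against 2823, 2947, 2984 and 2985 in females and at 3024, 3127, 3153 and 3333 against 2445, 2613, 2623 and 2873 in males (-0.47 ± 0.078 SE, adjusted p = 0.00945). In these 3 genes, picked for a small p, the groups did not overlap in either sex, and they differed in opposite directions. The share of all genes that do so was not counted.

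Positive differences were led by Bclaf1, Ccdc88a and Zbtb10. Bclaf1, a nuclear RNA-processing factor, was at 3681, 3707, 3721 and 3819 in HT fluoxetine females against 3224, 3227, 3286 and 3436 and at 3149, 3269, 3354 and 3356 in males against 3398, 3764, 3781 and 3956 (0.36 ± 0.060 SE, adjusted p = 0.00945). Ccdc88a, an actin-binding protein also called girdin, had a difference of 0.65 ± 0.12 SE and Zbtb10, a zinc finger repressor, one of 0.52 ± 0.10 SE. Of the 34 genes of the comparison over both sexes, Ddit4 (-0.55, adjusted p = 0.0235) and Btg2 (1.08, adjusted p = 0.0383) passed here.

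**Figure D5:**
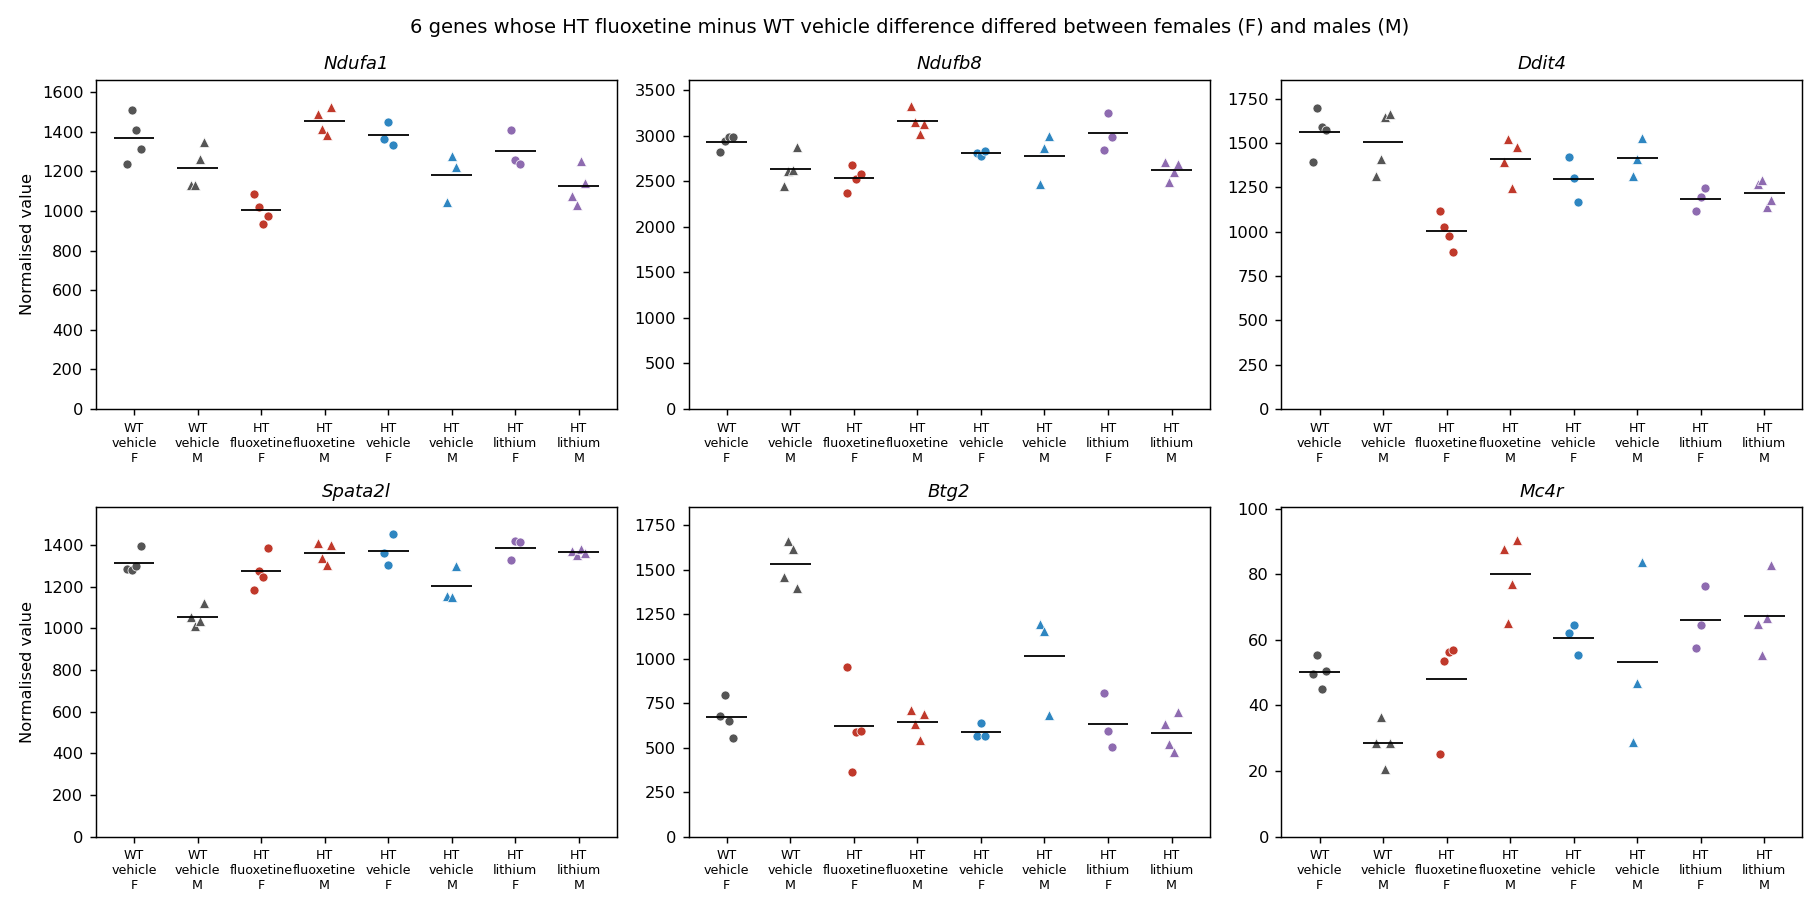
Normalised value (vertical axes, starting at 0) of 6 genes whose difference between HT fluoxetine and WT vehicle was not the same in females and males, in all 29 libraries by condition and sex (F, M), with group means as lines. For Ndufa1 and Ndufb8 the HT fluoxetine females are low and the males high; for Spata2l and Btg2 the WT vehicle males stand apart from the other libraries of the comparison.

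Among the lists, nuclear genes of oxidative phosphorylation held the most such genes: 23 of 73 passed, all negative, beside 2.04% of all genes tested, with a list median of -0.22. The median was -0.11 in females and 0.15 in males. Per library, the mean of these genes lay between -0.157 and -0.02 in HT fluoxetine females and between 0.063 and 0.198 in HT fluoxetine males. It lay between -0.062 and 0.065 in WT vehicle females and between -0.066 and 0.013 in WT vehicle males. Besides Ndufa1 and Ndufb8 they included Cox5b of complex IV, at 3595 to 4725 against 4240 to 5117 in females and 5136 to 5400 against 3769 to 5038 in males (-0.55 ± 0.12 SE, adjusted p = 0.0235). Many of these genes have processed pseudogenes that can share reads. The 13 genes of the mitochondrial genome had a median of 0.23, of the other sign, and none passed in limma.

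Glucocorticoid-responsive genes gave 5 of 24 past the threshold, all negative, beside 2.04% of all genes: Ddit4, Sgk1 (-0.84), Tsc22d3 (-0.66), Klf15 and Arrdc2. Sgk1, a kinase induced by corticosteroids, was at 1208 to 1712 in HT fluoxetine females against 2023 to 2193, and at 1573 to 2158 in males against 1229 to 1920. The WT vehicle females and males did not overlap here: the list's mean per library was 0.119 to 0.208 in WT vehicle females and -0.244 to -0.062 in WT vehicle males, and -0.204 to 0.127 in the HT fluoxetine libraries. Of 28 genes of cholesterol synthesis and transport 3 passed, all negative (2.04% of all genes): Fdft1 (-0.45), Mvd (-0.51) and Fdps. Of 36 chromatin regulators 2 passed, both positive (1.50% of all genes), and the median was 0.18.

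Transcript length moved with the sex difference. Across 17869 genes, Spearman's rho between exonic length and the log2 difference was 0.198 in females, -0.11 in males and 0.022 over both sexes. Genes are not independent replicates, and no p is given. The median exonic length was 8515 bases for genes with a positive sex difference and 2795 bases for those with a negative one, against 4019 for all genes. The mean over the 10% of genes with the longest exonic length, minus that over the 10% with the shortest, lay between 0.034 and 0.128 in HT fluoxetine females and between -0.212 and 0.006 in HT fluoxetine males. The same measure lay between -0.051 and 0.056 in WT vehicle females and between -0.027 and 0.014 in WT vehicle males. With it as a covariate the sex difference passed for 0 genes by limma. The comparison over both sexes passed for 31, of which 30 were among the 34. The measure was computed from the same values and set HT fluoxetine females apart from males. The fit with it therefore cannot decide what part length had in the sex difference. With the marker means as covariates the sex difference passed for 2 genes, Ndufa1 (-0.75, adjusted p = 0.0211) and Ly6h (-0.50, adjusted p = 0.0348). When the libraries with high markers were dropped, on 13 residual degrees of freedom, it passed for 2, of which 1 was among the 634.

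The sex difference also rested on single libraries. Its count was 22 without HT fluoxetine female 1, 1785 without female 2, 15 without female 3, 402 without male 2 and 7 without male 4 of that group. It was 319 without WT vehicle female 1, 112 without female 2, 366 without female 3, 57 without female 4, 5 without male 1, 158 without male 2, 5 without male 3 and 2012 without male 4. Ndufa1, Ly6h, Ndufb8, Bclaf1 and Spata2l passed in all 16 of these fits, and Btg2 in 3.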

How the data were processed

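Prefrontal cortex RNA was sequenced after poly(A) selection with a stranded kit, per the labels' protocols; all libraries carry the same batch label. The deposited signal values are, per the file, counts per gene that the authors divided by a size factor per library. The submitters' processing notes name Salmon 0.11.2, R 3.6.0, DESeq2 1.19.11 and GRCm38. The annotation release, the strand setting and any filter on genes are not given in the sources used here. Whole reads were recovered from the steps of the deposited values (100% whole within 0.0001), so 22.81 M to 31.71 M reads lie behind each library, and edgeR's count test on them gave 32 genes.

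A gene was tested where 3 or more libraries reached a value of 10 (17881 genes). Values were taken as log2(value + 1), which understates changes of low genes. limma 3.58.1 (R 4.3.3, intensity trend) was fitted to all 29 libraries with 1 mean per condition and sex, and HT fluoxetine minus WT vehicle was the mean of both sexes. Adjusted p-values are Benjamini-Hochberg over all genes tested, two-sided, with a threshold of 0.05. Sex differences are the interaction in the same fit. edgeR 4.0.16 and DESeq2 1.42.0 on recovered reads, other filters, scalings and library subsets were tried as alternatives. Named genes were Tbr1, the 12 genes per direction with the smallest p and a mean of at least 50, the 3 per direction for each sex and for the sex difference, up to 4 per list, and the 12 with the smallest p in HT vehicle minus WT vehicle. Other genes named among the 34 or within a list were chosen after their values were seen. The libraries left out and the covariates of markers and length were chosen after seeing the data. The members and lists (38) were chosen with earlier results of these data known. Symbols, lengths and the codon came from GENCODE M21, promoters from RefSeq (GRCm38.p6). The fits were tested on simulated data.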

Additional observations from a re-analysis of the deposited data

Results flagged for a closer look

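Single libraries stood apart from the other 3 of their sex and condition in 20 of 280 groups of 4 examined (70 genes), by Dixon's 95% criterion for the gap to the nearest library; chance gives about 1 in 20. Among HT fluoxetine libraries, female 1 was low for Sox18 (166.1, others 216.5 to 220.8), Krt77 (254.6) and Mc4r (25.16, others 53.44 to 56.75), and female 4 for Tgfbr2 (475) and C130036L24Rik (39.94). Female 2, with high striatal markers, was high for Lrrc10b (459.2, others 86.32 to 126.1), which is itself on the striatal list. Male 2 was high for Sla2 (50.85), male 4 low for Ccdc88a (1762, others 2169 to 2234), and male 3 low for Tsc22d3 (1377, others 1765 to 1774).

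Among WT vehicle libraries, female 4 was high for Banp (837.5), Bdnf (931.7) and Hspa5 (6232), and female 3 for Fkbp5 (1113) and Gm13736 (5.311). Male 3 was low for Lrrtm1 (1031) and Bdnf (683.5). Male 4 was high for Rara (315, others 227.2 to 239.9) and low for C1galt1 (645.7, others 855.3 to 886.2). Male 1 was high for Hspa5 (5324) and male 2 for Gm13736 (16.84, others 0).

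The difference between HT fluoxetine and WT vehicle was not the same in females and males for 634 genes, by the interaction in limma. Female minus male differences among the genes described were negative for Mc4r (-1.604), Sgk1 (-0.8417), Ndufa1 (-0.6982), Tsc22d3 (-0.6556), Ly6h (-0.5849), Cox5b (-0.5537), Ddit4 (-0.5477), Mvd (-0.5099), Ndufb8 (-0.4708), Fdft1 (-0.4535) and Spata2l (-0.4148). They were positive for Btg2 (1.081), Ccdc88a (0.6466), C1galt1 (0.5335), Zbtb10 (0.5204), Tshz2 (0.5108), Plcb4 (0.3766) and Bclaf1 (0.3615). The part of tissue markers and transcript length in these differences was examined only through the covariate fits. The length measure itself set HT fluoxetine females apart from males, so its fit cannot decide the part of length.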

How the results depend on the processing

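All 34 genes kept their direction in every setting run for them (up to 36). Counts follow as higher and lower for both sexes, females, males and the sex difference. With 16 libraries and sex as a covariate they were 0 and 0 for both sexes; with 1 mean per condition and sex in 16 libraries 0 and 0, 0 and 1, 3 and 1, 0 and 3. Without an intensity trend females gave 2 higher, males 182 and 120, the sex difference 75 and 106. Library weights gave 68 and 27, 15 and 12 in females, and 502 and 682 for the sex difference. A threshold of 0.1 gave 65 and 22, 1121 and 770 in males, and 798 and 1010. edgeR with TMM gave 264 higher in males. DESeq2 gave 75 and 21, 13 and 20, 810 and 472, 587 and 801. Chosen after seeing the data, leaving out libraries with high markers gave 3 and 2, 1 higher in females, 0 and 0, 1 and 1. Marker covariates gave 74 and 19, 5 lower in females, 5 and 4, 0 and 2. The length covariate gave 0 and 1 in females, 150 lower in males, 0 and 0 for the sex difference. Leaving out 1 library gave 8 to 68 higher and 2 to 30 lower over both sexes, 0 to 7 and 1 to 6 in females, 13 to 1359 and 8 to 798 in males, and 1 to 803 and 4 to 1209 for the sex difference. The subsets also hold fewer libraries, and why the counts moved was not tested.

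With the replicate number as a block the counts were 0 and 0, 0 and 0, 4 and 0, 0 and 0, on 6 residual degrees of freedom. Same-numbered libraries correlated at -0.208, -0.164, 0.142 and 0.0428 in females and at -0.0214, -0.0457, -0.127 and -0.0858 in males. Of these only female number 3 correlated best with its own number. These correlations show no pairing by number, but cannot exclude one.

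Of 83 gene results, Aldh1l1 changed sign: -0.01201 with quantile normalisation, -0.008317 without libraries with high markers, -0.002842 with marker covariates, and between -0.0067 and 0.0133 when single libraries were left out, below 0 without HT fluoxetine female 2 or male 1, or WT vehicle female 2 or male 2.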
